A study of Homo sapiens with 6 samples.

Results

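The 34 genes described here encode enzymes of cholesterol and fatty acid synthesis and the proteins that control them through SREBP, the sterol regulatory element binding protein. They were chosen by gene symbol from the known pathway, and each matched 1 of the 26255 rows of the deposited tables. They were placed in 4 groups by role: 8 enzymes of the early sterol steps that lead to squalene, 10 enzymes of the late steps from squalene to cholesterol, 7 SREBP regulators and sterol handling proteins, and 9 genes of fatty acid synthesis. Messenger RNA was measured in HT29, an established human colon adenocarcinoma cell line. Cells received YM155, an imidazolium compound known for lowering survivin transcription, for 24 h, or DMSO, its vehicle, and 3 libraries were sequenced for each. The dose is not given in the sources used here. Nor do the labels say that the libraries came from separate cultures, so p-values cover only the spread between libraries, which may be technical.

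Cholesterol and fatty acids are both built from cytosolic acetyl-CoA. SREBP-2, encoded by SREBF2, mainly drives the sterol genes, and SREBP-1, encoded by SREBF1, mainly drives the fatty acid genes. Both are made as membrane precursors that the escort protein SCAP carries from the endoplasmic reticulum to the Golgi, where proteases release the active factor. When sterols are plentiful, the INSIG proteins hold SCAP in the endoplasmic reticulum, and INSIG1 is itself an SREBP target, so its transcript is part of a feedback loop. In the intestinal epithelium these genes supply membranes of dividing cells and lipid for export.

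Expression is given as FPKM, fragments counted per transcript length and library size, which allows levels of different genes to be compared. Of 10 markers of colon epithelium 8 had a mean of at least 1 FPKM in each group, with CDX2 above that level with DMSO alone and CDH17 with YM155 alone, and the 6 fibroblast and 4 endothelial markers were all under 1 FPKM. The summed epithelial markers were at 4121 to 4315 FPKM with DMSO and 7356 to 7927 FPKM with YM155, mostly from KRT8 (means of 1962 and 3239 FPKM) and KRT18 (1706 and 3006 FPKM). Not all markers were higher: CDX2 had means of 3.20 and 0.839 FPKM, and VIL1 38.6 and 22.3 FPKM. The part of these shifts in the results was not tested. Of the 5 leukocyte markers only LYZ, which epithelial cells can also express, was above 1 FPKM. FPKM values summed to 538500 to 563300 in a DMSO library and 678700 to 696100 in a YM155 library. From the steps of low values, 1 read was worth 1.52 to 1.78 times as much FPKM in the YM155 libraries as in DMSO replicate 1, so the YM155 libraries were shallower and their low levels less precise. In bulk RNA, fewer cells with a transcript and less of it per cell cannot be told apart.

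Promoter sequences are shown for 5 members as contrasting examples, which are not the 5 largest changes: SREBF2 and INSIG1, which rose, INSIG2, which fell, and the late sterol genes MSMO1, which rose, and TM7SF2, which fell. Each is the 250 bases before the most upstream start site in RefSeq (assembly GRCh38.p14, not the build of the expression values), written 5′ to 3′ on the gene's strand, which is the plus strand for all of them. The stretches lie at chr22:41832855-41833104 for SREBF2, chr7:155297628-155297877 for INSIG1, chr2:118088221-118088470 for INSIG2, chr4:165327419-165327668 for MSMO1 and chr11:65111622-65111871 for TM7SF2. Capitals mark matches on either strand to a sterol regulatory element written TCACNCCAC, an NF-Y box (CCAAT, or ATTGG on the other strand), an E-box (CACGTG) or a GC box (GGGCGG, or CCGCCC).
SREBF2: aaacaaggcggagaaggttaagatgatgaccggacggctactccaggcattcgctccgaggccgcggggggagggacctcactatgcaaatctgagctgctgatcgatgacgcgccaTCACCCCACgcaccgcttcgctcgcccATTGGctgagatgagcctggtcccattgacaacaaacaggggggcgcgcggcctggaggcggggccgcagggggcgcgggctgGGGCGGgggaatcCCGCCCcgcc
INSIG1: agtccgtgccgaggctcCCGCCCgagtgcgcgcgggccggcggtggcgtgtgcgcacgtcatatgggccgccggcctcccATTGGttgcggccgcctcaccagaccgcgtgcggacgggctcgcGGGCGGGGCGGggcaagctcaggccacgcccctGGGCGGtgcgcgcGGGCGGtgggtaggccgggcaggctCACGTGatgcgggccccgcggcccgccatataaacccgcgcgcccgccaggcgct
INSIG2: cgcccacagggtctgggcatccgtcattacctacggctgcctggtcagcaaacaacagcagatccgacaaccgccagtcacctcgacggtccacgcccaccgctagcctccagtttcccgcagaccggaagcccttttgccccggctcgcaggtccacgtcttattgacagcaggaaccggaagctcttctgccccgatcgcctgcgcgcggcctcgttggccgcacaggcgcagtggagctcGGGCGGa
MSMO1: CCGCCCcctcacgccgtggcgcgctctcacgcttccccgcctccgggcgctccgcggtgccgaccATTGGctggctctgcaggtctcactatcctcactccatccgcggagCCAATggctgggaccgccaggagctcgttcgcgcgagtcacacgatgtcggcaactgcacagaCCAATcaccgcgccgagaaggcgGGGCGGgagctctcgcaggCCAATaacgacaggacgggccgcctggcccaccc
TM7SF2: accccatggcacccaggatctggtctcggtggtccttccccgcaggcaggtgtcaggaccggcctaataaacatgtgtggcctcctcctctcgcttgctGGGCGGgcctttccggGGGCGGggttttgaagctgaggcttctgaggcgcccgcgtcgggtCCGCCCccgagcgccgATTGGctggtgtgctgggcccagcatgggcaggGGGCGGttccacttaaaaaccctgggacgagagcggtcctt

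The sterol regulatory element of SREBF2 lay 133 to 125 bases before its start site, with an NF-Y box at 106 to 102 bases. MSMO1 held 4 NF-Y boxes, TM7SF2 and INSIG1 each held 1, and INSIG2 held a single GC box and none of the others. RefSeq windows of 300 bases, which run to 50 bases past the start site, were found for 30 of the 34 genes, not for ACAT2, FASN, FDFT1 or SQLE. An NF-Y box was present in 18 of the 30 windows (60%), against 35.7% of the windows of 27305 genes taken in the same way. In the late sterol genes 7 of 9 windows held one. Windows of genes that rose with YM155 held the box in 12 of 18 cases and windows of genes that fell in 6 of 9, the same share. The sterol element was found only in SREBF2 among the members (1 of 30 windows, against 1.13% of all genes), the E-box in 4 of 30 (against 7.41%), and the GC box in 26 of 30 (against 44.5%). The 27305 genes were not limited to those expressed in these cells. Shares among expressed genes alone were not counted. A match in letters is a description of the window and not a measured binding site. A window without a match lacks only these exact letters, and the gene may still hold such an element in another spelling or place.

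The study set YM155 against DMSO, and here that contrast is read for this pathway. Of the 34 genes, 32 passed the filter on low values (1 FPKM or more in 3 or more libraries) and were tested. Of these 32, 20 rose, 10 fell and 2 did not pass, by limma with Benjamini-Hochberg adjustment over 12035 tested genes and a threshold of 0.05. Most genes of these cells passed that test, 43.6% as higher and 41.0% as lower, 84.7% in all, so a call alone sets no member apart. The median log2 fold change of the members was 0.51, against 0.02 for all tested genes, and members ranged from -1.51 (ELOVL6) to 1.44 (MSMO1). The libraries of the groups did not overlap for 30 of the 32 members, against 85.9% of all tested genes. Folds below are ratios of mean FPKM, and log2 fold changes are of FPKM + 1.

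Both regulators of transcription rose, SREBF2 further than SREBF1. SREBF2 was at 40.8, 42.5 and 42.8 FPKM in the DMSO libraries and at 97.3, 101 and 97.5 FPKM in the YM155 libraries. The groups lay far apart, and SREBF2 was 2.34-fold higher (limma: a log2 change of 1.21 with an SE of 0.04, adjusted p = 1.3e-08). SREBF1 measured 30.1, 34.05 and 31.2 FPKM in DMSO libraries, against 56.03, 53.3 and 46.4 FPKM in YM155 libraries, 1.63-fold higher (adjusted p = 2.2e-05 by limma). YM155 replicate 3 was the lowest of its group for SREBF1, but the groups did not overlap. The ratio of SREBF1 to SREBF2 within a library, which does not depend on how libraries were scaled, was 0.756 ± 0.0390 with DMSO and 0.527 ± 0.050 with YM155 (SD, n = 3).

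The 2 INSIG transcripts moved in opposite directions. INSIG1, the SREBP-induced retention protein, measured 45.4, 43.4 and 49.98 FPKM in DMSO libraries, against 102, 106 and 105 FPKM in YM155 libraries, 2.25-fold higher (limma: a log2 change of 1.16 with an SE of 0.06, adjusted p = 1.0e-07). INSIG2, its paralog with the same retention role, measured 20.8, 19.2 and 21.3 FPKM in DMSO libraries, against 13.3, 15.1 and 14.03 FPKM in YM155 libraries, 1.44-fold lower (limma: a log2 change of -0.50 with an SE of 0.06, adjusted p = 6.2e-05). Neither gene's groups overlapped. INSIG1 was 2.26 ± 0.0802 times as abundant as INSIG2 with DMSO and 7.37 ± 0.327 times as abundant with YM155 (SD, n = 3).

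SCAP and the sterol handling genes were also higher. SCAP, the escort of SREBP, went from 13.04 ± 0.581 to 14.7 ± 0.358 FPKM (SD, n = 3), a small rise that passed the test (adjusted p = 0.021 by limma) but turned to -0.17, -0.14 and -0.06 on the log2 scale with upper-quartile, common-sum and quantile scaling, and lost its call without DMSO replicate 1, DMSO replicate 3 or YM155 replicate 1 (adjusted p of 0.075, 0.072 and 0.051). STARD4, which carries cholesterol between membranes, rose 1.51-fold, from 9.99, 8.39 and 10.6 FPKM to 12.96, 15.2 and 15.8 FPKM. MYLIP, a ubiquitin ligase that directs lipoprotein receptors to degradation and is induced by the sterol-sensing LXR receptors, rose 1.64-fold, from 6.25 ± 0.242 to 10.2 ± 0.374 FPKM (SD, n = 3). Of the 7 genes of this group 6 rose and 1 fell (85.7% and 14.3%, against 43.6% and 41.0% of all tested genes). Their median log2 fold change was 0.63.

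**Figure D1:**
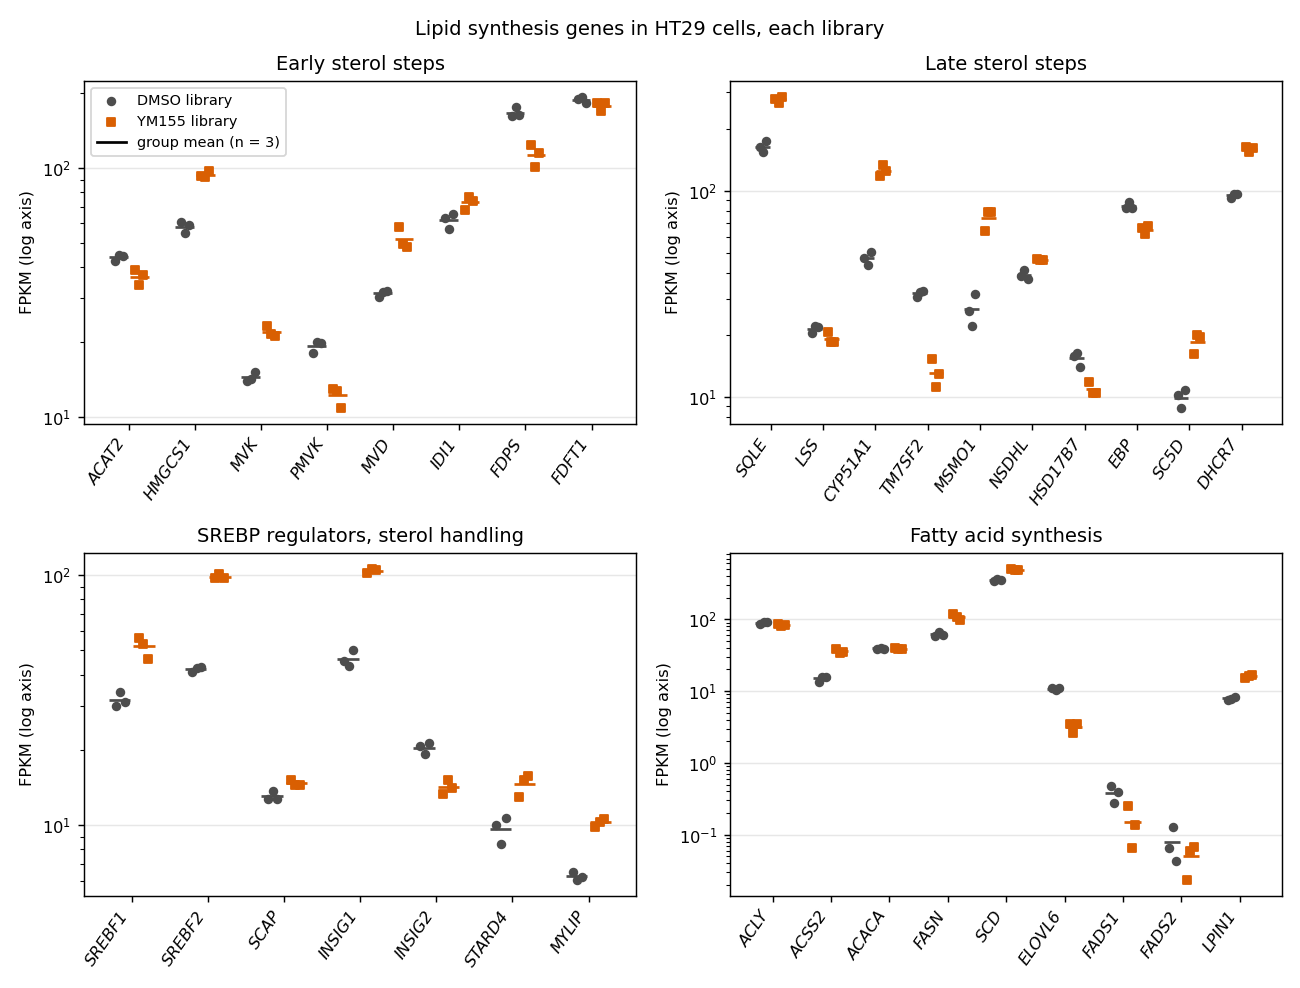
FPKM of the 34 genes in each library, on a log axis, in 4 panels by role; circles are DMSO libraries, squares are YM155 libraries and short lines are the means of 3 libraries. SREBF2, INSIG1, CYP51A1, MSMO1 and ACSS2 lie higher with YM155 and TM7SF2 and ELOVL6 lower, while FADS1 and FADS2 stay under 1 FPKM in every library.

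The early sterol steps moved in both directions. Of their 8 genes 4 rose, 3 fell and 1 did not pass, with a median log2 fold change of 0.08. These shares (50% and 37.5%) were close to the 43.6% and 41.0% of all tested genes, whose median was 0.02. HMGCS1, the synthase that makes HMG-CoA, measured 61.01, 54.8 and 59.1 FPKM in DMSO libraries, against 93.3, 92.03 and 97.4 FPKM in YM155 libraries, 1.62-fold higher (limma: a log2 change of 0.68 with an SE of 0.05, adjusted p = 1.5e-06). Here too the groups were clear of each other. MVK, the mevalonate kinase, rose 1.52-fold, from 14.4 ± 0.688 to 21.97 ± 1.06 FPKM, and MVD, the mevalonate diphosphate decarboxylase, rose 1.66-fold, from 31.4 ± 0.966 to 52.0 ± 5.36 FPKM (SD, n = 3).

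PMVK, the phosphomevalonate kinase that acts between MVK and MVD, went the other way. It measured 18.1, 20.04 and 19.9 FPKM in DMSO libraries, against 12.98, 12.8 and 10.9 FPKM in YM155 libraries, 1.58-fold lower (limma: a log2 change of -0.63 with an SE of 0.08, adjusted p = 4.3e-05). Of the 3 consecutive enzymes that turn mevalonate into isopentenyl diphosphate, the first and last thus rose while the middle one fell. IDI1, the isomerase of isopentenyl diphosphate, was 1.18-fold higher (61.8 ± 4.50 and 72.9 ± 4.65 FPKM, SD, n = 3, adjusted p = 0.0082 by limma), yet 0.24 on the log2 scale became -0.11, -0.08 and -0.20 with upper-quartile, common-sum and quantile scaling.

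FDPS, the farnesyl diphosphate synthase at the branch point to sterols, ubiquinone and prenylated proteins, measured 162, 176 and 164 FPKM in DMSO libraries, against 123.5, 101 and 115 FPKM in YM155 libraries, 1.48-fold lower (adjusted p = 6.3e-05 by limma). FDFT1, the squalene synthase that commits farnesyl diphosphate to sterols, was at 189 ± 5.50 and 178.5 ± 7.42 FPKM and did not pass (adjusted p = 0.12 by limma). With upper-quartile, common-sum and quantile scaling FDFT1 passed as lower (log2 fold change -0.43, -0.40 and -0.58). Within a library the ratio of FDFT1 to FDPS went from 1.13 ± 0.0331 to 1.58 ± 0.101 (SD, n = 3). ACAT2, the acetoacetyl-CoA thiolase at the start of the pathway, was 1.195-fold lower (adjusted p = 0.0025 by limma). Its exons overlap those of TCP1 and SOD2 on the opposite strand. The libraries were made with a strand-marking kit, but whether quantification used strand is not stated in the sources. The same holds for MVK, which overlaps MMAB, and for SREBF1, which overlaps RAI1. Non-coding genes on the opposite strand overlap exons of HMGCS1, IDI1, FDPS, FDFT1, LSS, CYP51A1, SREBF2, STARD4, ACLY and LPIN1. Shared exon bases numbered 703 for HMGCS1 and 280 for SREBF2, against 306 for MVK. FDPS has 8 annotated pseudogenes, and SCD and FADS2 have 1 each, with which their reads can be shared.

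The late sterol steps held the largest rises of the pathway and also clear falls. Of their 10 genes 6 rose and 4 fell (60% and 40%, against 43.6% and 41.0% of all tested genes). Their median log2 fold change was 0.50. MSMO1, the sterol C4 methyl oxidase, measured 26.2, 22.1 and 31.5 FPKM in DMSO libraries, against 63.5, 79.2 and 78.6 FPKM in YM155 libraries. MSMO1 had the largest SE of the tested members, yet its groups did not overlap and it was 2.77-fold higher (limma: a log2 change of 1.44 with an SE of 0.13, adjusted p = 4.4e-06). CYP51A1, the lanosterol 14-alpha demethylase, measured 47.2, 43.9 and 50.4 FPKM in DMSO libraries, against 119, 134 and 124 FPKM in YM155 libraries, 2.66-fold higher (limma: a log2 change of 1.39 with an SE of 0.06, adjusted p = 6.6e-08). CYP51A1 shares exon sequence with a read-through gene model of the same strand and has 3 annotated pseudogenes, so part of its reads may be assigned elsewhere.

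SQLE, the squalene epoxidase and a rate-limiting enzyme of the late steps, was the most abundant late transcript. It measured 163, 155 and 174 FPKM in DMSO libraries, against 279.9, 267 and 286 FPKM in YM155 libraries, 1.696-fold higher (limma: a log2 change of 0.76 with an SE of 0.05, adjusted p = 8.5e-07). LSS, the lanosterol synthase that acts next, did not follow. LSS measured 20.5, 22.2 and 21.8 FPKM in DMSO libraries, against 20.6, 18.5 and 18.6 FPKM in YM155 libraries, and these groups overlapped. Its fall (log2 fold change -0.15, adjusted p = 0.035 by limma) lost its call without DMSO replicate 2, DMSO replicate 3, YM155 replicate 2 or YM155 replicate 3 (adjusted p of 0.11, 0.093, 0.10 and 0.10). With upper-quartile, common-sum and quantile scaling LSS passed as lower (log2 fold change -0.49, -0.46 and -0.44). With median-of-ratios scaling it did not pass (adjusted p = 0.084 by limma). The ratio of SQLE to LSS went from 7.63 ± 0.563 to 14.5 ± 0.904 (SD, n = 3).

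The final steps rose, while an earlier reductase fell. DHCR7, the 7-dehydrocholesterol reductase that closes the pathway, rose 1.68-fold, from 95.03 ± 2.25 to 160.0 ± 4.796 FPKM, and SC5D, the C5 desaturase before it, rose 1.86-fold, from 9.95 ± 1.00 to 18.5 ± 2.06 FPKM (SD, n = 3). TM7SF2, a C14 sterol reductase that acts on the product of CYP51A1, measured 30.4, 32.4 and 32.7 FPKM in DMSO libraries, against 15.2, 11.2 and 12.9 FPKM in YM155 libraries, 2.43-fold lower (limma: a log2 change of -1.23 with an SE of 0.09, adjusted p = 2.0e-06). Every YM155 library was well below every DMSO library.

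EBP, the sterol isomerase, fell 1.30-fold, from 84.2 ± 3.11 to 64.9 ± 2.97 FPKM, and HSD17B7, a 3-ketosteroid reductase, fell 1.41-fold, from 15.4 ± 1.27 to 10.9 ± 0.819 FPKM (SD, n = 3). HSD17B7 has 2 annotated pseudogenes. NSDHL, the C4 decarboxylase that works with MSMO1 and HSD17B7, was 1.19-fold higher (38.95 ± 1.94 and 46.4 ± 0.359 FPKM, SD, n = 3, adjusted p = 9.8e-04 by limma), a direction that turned with upper-quartile, common-sum and quantile scaling (log2 fold change -0.09, -0.07 and -0.16). Of the 3 enzymes that together remove the C4 methyl groups, MSMO1 thus rose most, NSDHL was slightly higher and HSD17B7 fell.

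Summed over each group, FPKM of the late enzymes went from 534.5 ± 13.95 to 810.0 ± 13.4, while the early enzymes were at 586 ± 6.27 and 582 ± 22.2 (SD, n = 3). The late sum was 0.907, 0.888 and 0.943 times the early sum in the DMSO libraries and 1.33, 1.44 and 1.41 times in the YM155 libraries. These ratios are formed within a library, and the 2 groups of libraries did not overlap. SQLE made up 30.6% of the late sum with DMSO and 34.3% with YM155, and FDPS and FDFT1 together 60.9% and 50.1% of the early sum, so a few abundant genes weigh heavily in both sums.

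**Figure D2:**
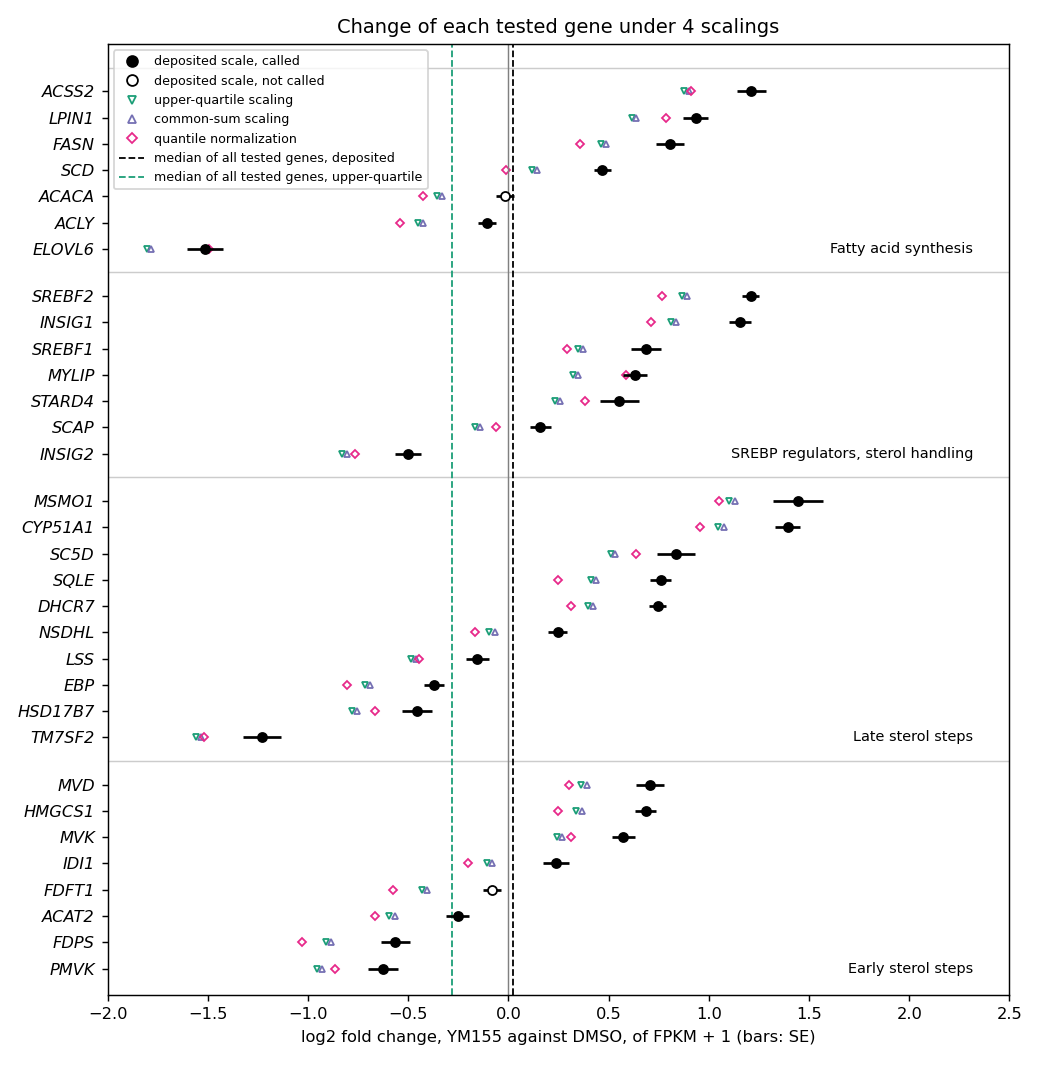
Log2 fold change (YM155 against DMSO, of FPKM + 1) of the 32 tested genes by role; circles with bars are limma estimates with their SE on the deposited scale, filled where called, and open symbols are the same genes after 3 other scalings. Dashed lines mark the median of all tested genes. Genes such as MSMO1, SREBF2, ACSS2, TM7SF2 and ELOVL6 keep their side of 0 on every scale drawn, while IDI1, NSDHL, SCAP and SCD cross it.

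The fatty acid genes split by step. ACSS2, which makes acetyl-CoA from acetate, measured 13.6, 15.97 and 15.7 FPKM in DMSO libraries, against 38.9, 34.4 and 35.4 FPKM in YM155 libraries, 2.401-fold higher (limma: a log2 change of 1.21 with an SE of 0.07, adjusted p = 3.9e-07). ACLY, which makes acetyl-CoA from citrate, measured 87.3, 91.3 and 90.7 FPKM in DMSO libraries, against 86.2, 80.4 and 83.3 FPKM in YM155 libraries. Its small fall (log2 fold change -0.11, adjusted p = 0.044 by limma) lost its call without DMSO replicate 2, DMSO replicate 3, YM155 replicate 2 or YM155 replicate 3 (adjusted p of 0.12, 0.10, 0.15 and 0.092). With upper-quartile, common-sum and quantile scaling ACLY passed as lower (log2 fold change -0.45, -0.43 and -0.54). With median-of-ratios scaling it did not pass (adjusted p = 0.15 by limma). ACLY was 5.97 ± 0.389 times as abundant as ACSS2 with DMSO and 2.303 ± 0.0757 times as abundant with YM155 (SD, n = 3).

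ACACA, the acetyl-CoA carboxylase that makes malonyl-CoA, was at 39.4 ± 0.755 and 38.9 ± 1.11 FPKM (SD, n = 3) with overlapping groups and did not pass (adjusted p = 0.71 by limma); with upper-quartile, common-sum and quantile scaling it passed as lower (log2 fold change -0.36, -0.33 and -0.43). FASN, the fatty acid synthase, measured 58.3, 65.5 and 60.8 FPKM in DMSO libraries, against 118, 108 and 98.7 FPKM in YM155 libraries, 1.76-fold higher (limma: a log2 change of 0.81 with an SE of 0.07, adjusted p = 4.95e-06). All 3 YM155 libraries were above the DMSO libraries.

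SCD, the stearoyl-CoA desaturase that makes monounsaturated fatty acids, was the most abundant member in every library. It measured 343, 363 and 356 FPKM in DMSO libraries, against 505, 485 and 479 FPKM in YM155 libraries, 1.38-fold higher (adjusted p = 5.6e-06 by limma), but its log2 fold change of 0.47 was -0.01 after quantile normalization. ELOVL6, the elongase that turns C16 into C18 fatty acids, fell furthest of all members. ELOVL6 measured 10.9, 10.5 and 11.1 FPKM in DMSO libraries, against 3.44, 2.62 and 3.44 FPKM in YM155 libraries, 3.42-fold lower (limma: a log2 change of -1.51 with an SE of 0.09, adjusted p = 3.4e-07).

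LPIN1, a phosphatidate phosphatase of glycerolipid synthesis and an SREBP target, rose 2.03-fold, from 7.92 ± 0.426 to 16.04 ± 0.772 FPKM (SD, n = 3). FADS1 and FADS2, the desaturases of polyunsaturated fatty acids, were too low to test. FADS1 measured 0.478, 0.277 and 0.387 FPKM in DMSO libraries, against 0.248, 0.0662 and 0.137 FPKM in YM155 libraries, and FADS2 was at no more than 0.127 FPKM in any library. Exons of these neighbours overlap on opposite strands. Of the 7 tested fatty acid genes 4 rose, 2 fell and 1 did not pass, with a median log2 fold change of 0.47. The shares were 57.1% higher and 28.6% lower, against 43.6% and 41.0% of all tested genes.

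Ratios of 7 pairs of members were compared between the groups with an exact two-sided permutation test, which with 3 against 3 libraries cannot go below p = 0.10. In 6 pairs the libraries of the groups did not overlap and p was at that smallest value (adjusted p = 0.12 over the 7 pairs). For INSIG1 to INSIG2 and ACLY to ACSS2 the single genes already lay apart in opposite directions, so this outcome was fixed in advance. How often other pairs of genes separate in this way was not counted. The log2 ratio, of FPKM + 1, changed by 1.66 for INSIG1 to INSIG2, by -1.32 for ACLY to ACSS2, by 0.91 for SQLE to LSS, by -0.52 for SREBF1 to SREBF2, by 0.48 for FDFT1 to FDPS and by -0.34 for SCD to FASN. The ratio of SCD to FASN was 5.76 ± 0.193 with DMSO and 4.53 ± 0.300 with YM155 (SD, n = 3), so FASN rose more than SCD in these libraries. FADS1 to FADS2, both near the floor of detection, had p = 0.20 by the same exact permutation test. No pair passed the threshold of 0.05, which this number of libraries cannot reach.

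**Figure D3:**
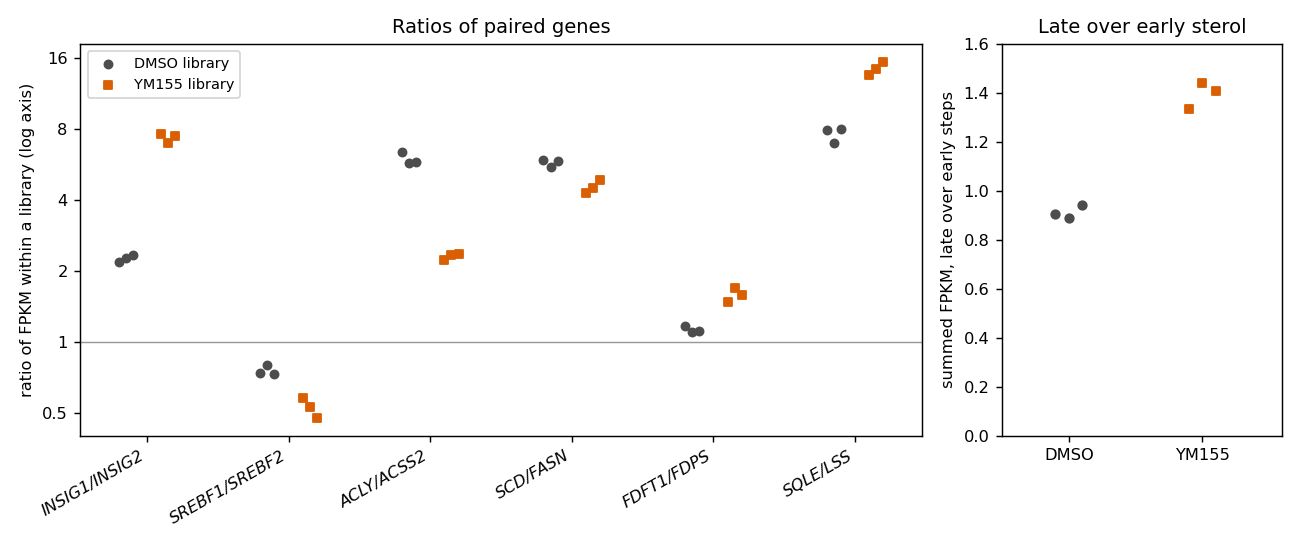
Ratios of FPKM within each library, free of scaling between libraries; left, 6 pairs of members on a log axis, right, the summed FPKM of the late over the early sterol enzymes. Circles are DMSO and squares YM155 libraries; INSIG1 over INSIG2 lies at 2.18 to 2.34 with DMSO and 7.01 to 7.64 with YM155, and the late over early sum at 0.888 to 0.943 and 1.33 to 1.44.

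The directions of small changes depended on scaling. Under upper-quartile, common-sum and quantile scaling the median over all tested genes shifted by -0.31, -0.28 and -0.11 on the log2 scale. It was then -0.28, -0.26 and -0.09. The median of the members was 0.18, 0.20 and 0.12 in place of 0.51, above that of all tested genes on each of these scales. The median of the late sterol genes was 0.15, 0.18 and 0.04, that of the early sterol genes -0.27, -0.24 and -0.39, and that of the fatty acid genes 0.12, 0.15 and -0.01. Over the deposited scale and 4 others, 27 of the 32 tested members had 1 direction throughout, 16 higher and 11 lower, and 5 changed it (IDI1, NSDHL, SCAP, SCD and ACACA). Taken relative to the median of all genes, SCD was at 0.44 on the deposited scale and at 0.40, 0.40 and 0.07 on those 3 scales, and NSDHL was at 0.22 and at 0.19, 0.19 and -0.08. Among the 16 were HMGCS1, MVK, MVD, SQLE, CYP51A1, MSMO1, SC5D, DHCR7, both SREBF genes, INSIG1, ACSS2, FASN and LPIN1. Of the 12035 genes, 51.5% of calls were higher on the deposited scale, 36.4% after upper-quartile scaling and 37.4% after common-sum scaling, and members higher and lower numbered 20 and 10, 17 and 13, and 16 and 13.

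Neighbouring pathways were read from 7 further lists, beginning with genes that process SREBP or turn over INSIG. Of all tested genes 43.6% rose and 41.0% fell. MBTPS1, MBTPS2, ABCA1, LIPA and NR1H3, named after their values were seen, are given on the deposited scale only. The directions of the other genes named from these lists held on every scale, except for PRKAA1 and PRKAG1. Of 10 tested genes of SREBP processing and INSIG turnover, 5 rose, 3 fell and 2 did not pass (median log2 fold change 0.48). On each of those 3 scales 5 fell. SPRING1, which supports the SREBP protease step, rose 1.98-fold, from 14.5 ± 0.583 to 28.7 ± 0.488 FPKM (SD, n = 3). The protease genes of that step did not follow. MBTPS2 fell 2.14-fold (adjusted p = 3.9e-05 by limma), and MBTPS1 did not pass (log2 fold change -0.03, adjusted p = 0.56 by limma). Of 16 genes of sterol traffic, storage and efflux, 7 rose and 8 fell (median -0.05). NR1H2, the LXR beta receptor gene, rose 2.74-fold, from 18.6 ± 1.01 to 50.9 ± 2.17 FPKM, and VLDLR, a lipoprotein receptor gene, rose 3.34-fold, from 1.76 ± 0.148 to 5.89 ± 0.293 FPKM (SD, n = 3). Among the genes that fell were ABCA1 (3.47-fold), LIPA (2.375-fold) and NR1H3, the LXR alpha receptor gene (1.23-fold).

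Among 12 tested genes of fatty acid elongation, desaturation and activation outside the members, 8 rose and 2 fell (median log2 fold change 0.58), with 4, 4 and 5 falling under upper-quartile, common-sum and quantile scaling. ELOVL1, the elongase of very long saturated chains, rose 2.99-fold, from 74.5 ± 3.70 to 223 ± 9.02 FPKM, and ACSL3, a fatty acyl-CoA synthetase of lipid droplets, rose 4.04-fold, from 41.2 ± 2.35 to 166.5 ± 13.5 FPKM, whereas HACD3, an elongation dehydratase, fell 2.02-fold (SD, n = 3). ELOVL6 thus fell while ELOVL1 rose within the same enzyme family. Of 7 tested genes of acetyl-CoA supply and carboxylase control, 5 rose and 2 fell (median 0.42), while 2, 3 and 3 rose on those scales, with MID1IP1, an activator of acetyl-CoA carboxylase, 3.28-fold higher (13.7 ± 1.17 and 44.97 ± 1.53 FPKM) and PRKAB1, a beta subunit gene of AMP kinase, 1.68-fold lower. The other tested AMP kinase subunit genes were called higher: PRKAG2 1.86-fold and, named after their values were seen, PRKAB2 1.38-fold, PRKAG1 1.37-fold and PRKAA1 1.14-fold. PRKAG2 was higher on every scale, whereas PRKAA1 turned to -0.15, -0.13 and -0.15 on the log2 scale with upper-quartile, common-sum and quantile scaling, and PRKAG1 was at -0.0046 with quantile normalization.

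Fatty acid breakdown went mostly the other way: of 14 tested genes 9 fell and 3 rose (median log2 fold change -0.41), and 1 rose with upper-quartile or common-sum scaling. DECR1, the dienoyl-CoA reductase, fell 3.74-fold, from 76.7 ± 2.81 to 20.5 ± 0.779 FPKM, CPT2, the inner carnitine palmitoyltransferase, fell 4.03-fold, and ACADM, the medium-chain acyl-CoA dehydrogenase, fell 3.48-fold (SD, n = 3). Of 14 genes of glycerolipid assembly and lipid droplets 7 rose and 4 fell (median 0.33). LPIN2, the paralog of LPIN1, rose 7.62-fold, from 24.1 ± 0.863 to 184 ± 5.76 FPKM, and AGPAT2, which makes phosphatidate, rose 2.93-fold, while AGPAT1 fell 1.83-fold. Of 14 genes of the isoprenoid branches 6 rose and 6 fell (42.9% each, median 0.04), close to the 43.6% and 41.0% of all tested genes. Among them were RABGGTB, a subunit of the Rab prenyl transferase whose gene also hosts small nucleolar RNAs, 4.77-fold higher, and ICMT, the prenylcysteine methyltransferase, 2.38-fold lower.

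**Figure D4:**
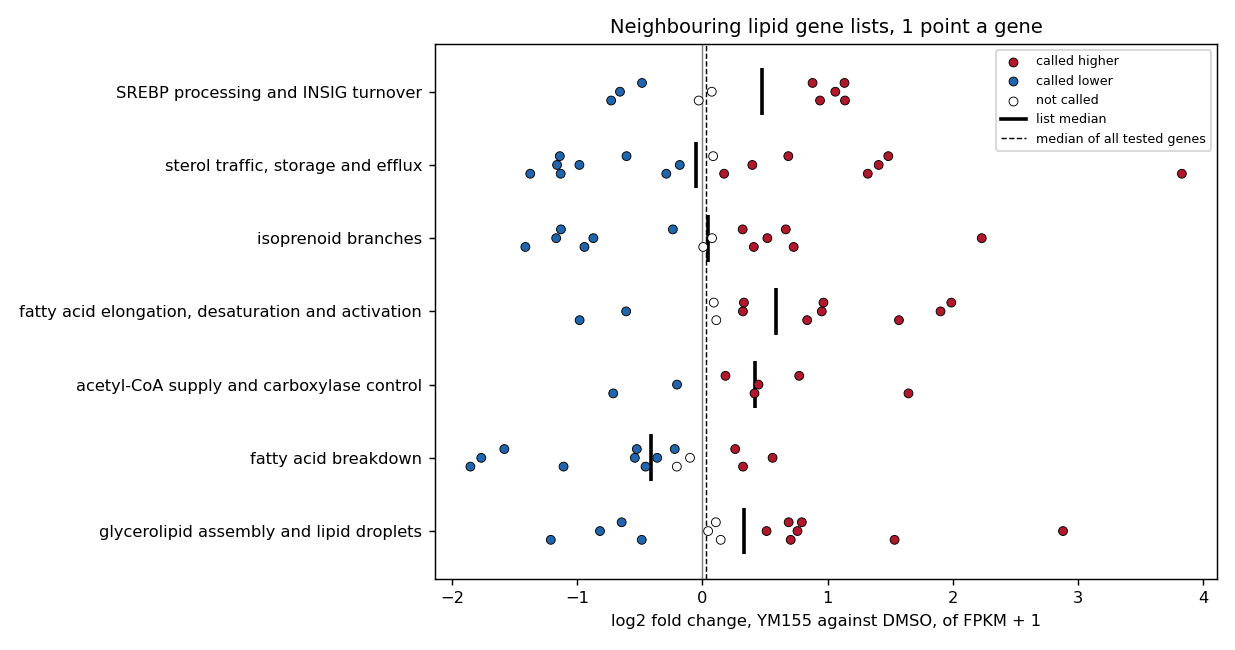
Log2 fold change (YM155 against DMSO, of FPKM + 1) of each tested gene of 7 neighbouring lipid gene lists; red points were called higher, blue lower and white not called, thick bars are list medians and the dashed line is the median of all tested genes. The list median is lowest for fatty acid breakdown (-0.41) and highest for elongation, desaturation and activation (0.58).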

How the data were processed

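Messenger RNA of HT29 cells was sequenced in 3 DMSO and 3 YM155 libraries. Treatment came from the treatment label; the sample titles spell the compound's number differently. The authors deposited 1 table of FPKM values per library (26255 gene symbols). The submitters' processing notes name Cufflinks 2.2.1, Cuffdiff, TopHat2 2.1.1, SAMtools 1.2, Bowtie2 2.3.5.1 and build hg19. Settings, annotation, use of strand and read totals are not stated in the sources, so depth is known only in relative terms and no counting interval is given.

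Genes at 1 FPKM or more in 3 or more libraries were tested on log2(FPKM + 1), a scale that understates changes of scarce transcripts, with limma 3.58.1 in R 4.3.3 (lmFit, eBayes with trend, two-sided, all 6 libraries, no covariate) and Benjamini-Hochberg adjustment over all tested genes. The script was tested on simulated data. Members and lists were chosen with earlier results of these data known. All members are named, with up to 3 genes of lowest p from each other list and some more that were named after their values were seen. The alternatives were other pseudocounts, filters, scalings and variance models, array weights, a replicate block, a threshold of 0.01 and leaving out each library. Exon overlaps, with their strand, and pseudogene names were read from GENCODE release 29, which need not be the annotation behind the expression values. Results for some withheld genes are not reported here.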

Additional observations from a re-analysis of the deposited data

How the results depend on the processing

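Pseudocounts of 0.1 and 0.5, no filter, robust eBayes and array weights kept the direction and call of every tested member. The members that fell among fatty acid genes numbered 1, in place of 2, with a mean FPKM of at least 5, with median-of-ratios scaling, with eBayes without trend and at a threshold of 0.01, and 1 to 2 when single libraries were left out. Upper-quartile and common-sum scaling gave 2 SREBP regulators as lower, in place of 1, and quantile normalization gave 5 early sterol genes as lower, in place of 3. With a mean FPKM of at least 5, 2922 of all genes were lower. The log2 fold change reversed with upper-quartile, common-sum and quantile scaling for IDI1 (-0.11, -0.082 and -0.20), NSDHL (-0.095, -0.069 and -0.16) and SCAP (-0.17, -0.14 and -0.060), with quantile normalization for SCD (-0.014) and with median-of-ratios scaling for ACACA (0.020). Relative to the median of all genes IDI1 was at 0.21 on the deposited scale and at 0.18, 0.18 and -0.11 on those 3 scales. The median of the early sterol genes reversed to -0.27, -0.24 and -0.39, where the median of all tested genes was -0.28, -0.26 and -0.09. The median of the fatty acid genes reversed to -0.014 with quantile normalization, which is the value of SCD. The cause of these reversals was not tested. STARD4 lost its call with common-sum scaling (adjusted p = 0.057 by limma).

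Same-numbered libraries did not deviate together (correlations of -0.07, -0.15 and -0.13 across genes), so the numbers were not taken as pairs. With the replicate block 19 members rose and 8 fell, the calls of LSS, SCAP and ACLY were lost, and 1 fatty acid gene was lower. Leaving out single libraries gave 19 to 20 members higher and 8 to 10 lower. The lower depth of the YM155 libraries limits what can be said of FADS1 and FADS2.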

Other observations

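Within each treatment the members ranked the libraries unevenly. Of the 32 tested members, 18 were highest in YM155 replicate 1 among the YM155 libraries, where 38.4% of all tested genes were highest, and 16 were lowest in YM155 replicate 2, where 31.9% of all tested genes were lowest. MSMO1, CYP51A1, SC5D, IDI1, INSIG1, INSIG2, STARD4 and MYLIP, named after their values were seen, were instead lowest in YM155 replicate 1 and in DMSO replicate 2 of their groups. These are 8 of 32 members (25%), against 20.6% of all tested genes. What these libraries differ in was not tested.

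ELOVL2, ELOVL4 and ELOVL5, elongases of polyunsaturated and very long chains, were listed at 0 FPKM in every library. An exact 0 in every library can be a failed estimate, and it was not examined further.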
